A study of Mus musculus with 12 samples.

Results

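The genes described here are 10 genes of the amino acid response that runs through the transcription factor ATF4: Atf4, Atf5, Ddit3, Trib3, Chac1, Sesn2, Asns, Psat1, Phgdh and Slc7a5. The list was chosen with earlier results of these data known. Its rows were found by name alone, as those of the count table whose Ensembl identifier carries 1 of the 10 symbols. That gave 11 of the 55573 rows in the table, since Ddit3 has 2 entries. The second Ddit3 entry (ENSMUSG00000116429) had 0 counts in all 12 libraries and could not be tested, and all 10 other rows passed the filter on low counts. This second entry is a short reading frame that lies wholly inside the main Ddit3 gene on the same strand and makes up 6.13% of its exonic bases, so reads there cannot be given to either entry.

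The cells were fibroblasts grown out of C57BL/6 mouse embryos at E13.5 (MEFs), and their transgene makes Oct4, Sox2, Klf4 and Myc, the OSKM set of factors that turns fibroblasts into pluripotent stem cells, when doxycycline is given. Cells of 3 embryos, named clones 1, 2 and 3, were each split over 4 groups and harvested after 72 h in a medium for pluripotent stem cells. MEF cells received neither agent, MEF+B12 cells received 2 µM vitamin B12, OSKM cells received doxycycline, at 1 µg/ml per the labels, and OSKM+B12 cells received both. The written methods give this dose in mg/ml, so its unit is uncertain. All 4 groups carry the transgene and only the induced ones saw doxycycline, so an effect of the drug and an effect of the factors cannot be told apart.

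ATF4 is the shared output of the integrated stress response. When a cell runs short of an amino acid, the kinase GCN2 phosphorylates the initiation factor eIF2alpha, general translation slows and the Atf4 message is translated better, so much of the control of ATF4 lies past the step measured by RNA sequencing. ATF4 then raises genes that import amino acids, make serine and asparagine and charge tRNAs, and under lasting stress it raises factors that favour cell death. Vitamin B12 is the cofactor of methionine synthase, which remakes methionine with a methyl group from the folate cycle, and serine feeds that cycle.

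ATF4 binds DNA with C/EBP family partners at composite elements, and the windows that hold letters of this kind are shown as a description. The members were chosen as genes of the ATF4 response, so these letters are not separate evidence about them. They were found in 5 of the 9 members with a promoter entry, and in 3 by the first motif below. Promoters from 250 bases before to 50 bases after the start were read from RefSeq (GRCm38.p6), where 9 of the 10 members had an entry, with 11 promoters among them. Slc7a5 had no entry. The motif TGATGNAA, searched on both strands, was in promoters of 3 members and in 3.97% of all 32851 promoters in the table. The related motif TGNTGCAA, added after these promoters had been looked at, was in those of 4 members and in 3.22% of all promoters. Because it was chosen with these promoters in view, its count is no test against that share. A member can have several promoters, while the shares are per promoter. The motifs overlap where both match the same bases, and Atf4, Atf5, Ddit3 and Phgdh had neither in these windows. Each window has 30 bases and is written 5′ to 3′ on the gene's strand with the match in capitals. The match lies on the opposite strand in Chac1, where the same bases match both motifs, in Sesn2 and in the second Trib3 window.
Asns (chr6:7693214-7693243): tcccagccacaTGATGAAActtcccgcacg
Chac1 (chr2:119351038-119351067): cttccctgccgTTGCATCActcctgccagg
Psat1 (chr19:15925177-15925206): acgcgggtggcTGGTGCAAtcccctgctct
Sesn2 (chr4:132510656-132510685): catgcaaaagtTTGCAGCAtctgtgcgagg
Trib3 first window (chr2:152344075-152344104): cgggtcacagaTGGTGCAAtcccgggccgc
Trib3 second window (chr2:152344028-152344057): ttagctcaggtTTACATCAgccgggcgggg
The Asns match lay 23 bases before the start and the first Trib3 match 33 bases before it, while those of Psat1, Chac1 and Sesn2 lay 136, 193 and 218 bases before it. These distances are from the RefSeq start of each promoter. For Psat1 and Asns the window lies inside the gene as GENCODE M21 draws it, whose most upstream start is farther out. A match is a description of these letters, and no binding was measured here.

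The library totals ran from 56971244 to 79236795 counts, and levels are given as CPM, the counts of a gene divided by the library total and scaled to a common size with TMM factors. Differences are on the log2 scale from the quasi-likelihood test of edgeR with clone as a block, ± is their standard error, and adjusted p-values are corrected over the 19174 genes tested. A gene counts as having passed at an adjusted p below 0.05. Summed over 10 fibroblast markers the libraries held between 88168 and 141786 CPM, so the cells carried the RNA of their label. Induction was uneven between clones. For Pou5f1, which encodes Oct4, the 4 libraries of induced cells from clones 1 and 2 had 18.5 to 20.7 CPM, and those from clone 3 had 2.86 and 2.33 CPM. Clone 1 also stood apart in ways the groups do not explain. Its 4 libraries had Ddx3y, a Y-linked gene, at 80.2 to 97.02 CPM and Xist, the RNA of the inactive X chromosome, at 0.0147 to 0.0289 CPM, whereas clones 2 and 3 had no Ddx3y counts and Xist at 219 to 350.2 CPM. The year in its sample titles was also a later one than that of the other clones. The share of counts on pseudogenes moved with induction, at 5.59% to 6.19% over the 6 uninduced libraries, 6.55% to 6.87% for induced cells from clones 1 and 2, and 5.86% and 6.33% for those from clone 3.

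The members were expressed over a wide range and most of them varied little. Per kilobase of exon and averaged over 12 libraries, the level was 67.0 CPM for Atf4, 44.7 for Atf5, 34.6 for Phgdh, 13.0 for Psat1, 11.2 for Sesn2, 9.33 for Asns, 7.69 for Ddit3, 6.47 for Slc7a5, 1.07 for Chac1 and 0.811 for Trib3. Atf4 was highest in every library, with 56.9 to 74.4 CPM per kilobase against at most 55.1 for Atf5. Trib3 and Chac1 were the lowest, with at most 1.47 CPM per kilobase. The ranges over libraries of every other neighbouring pair in this order overlapped, apart from the gaps between Phgdh and Psat1 and between Slc7a5 and Chac1. In a single library the 2 weakest members were read by few fragments, with 67 to 193 counts for Trib3 and 76 to 160 for Chac1, while Atf4 had 8513 to 12483. The highest library exceeded the lowest by 1.18-fold for Sesn2 and 1.20-fold for Psat1, and by 2.10-fold for Chac1 and 3.07-fold for Trib3.

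**Figure D1:**
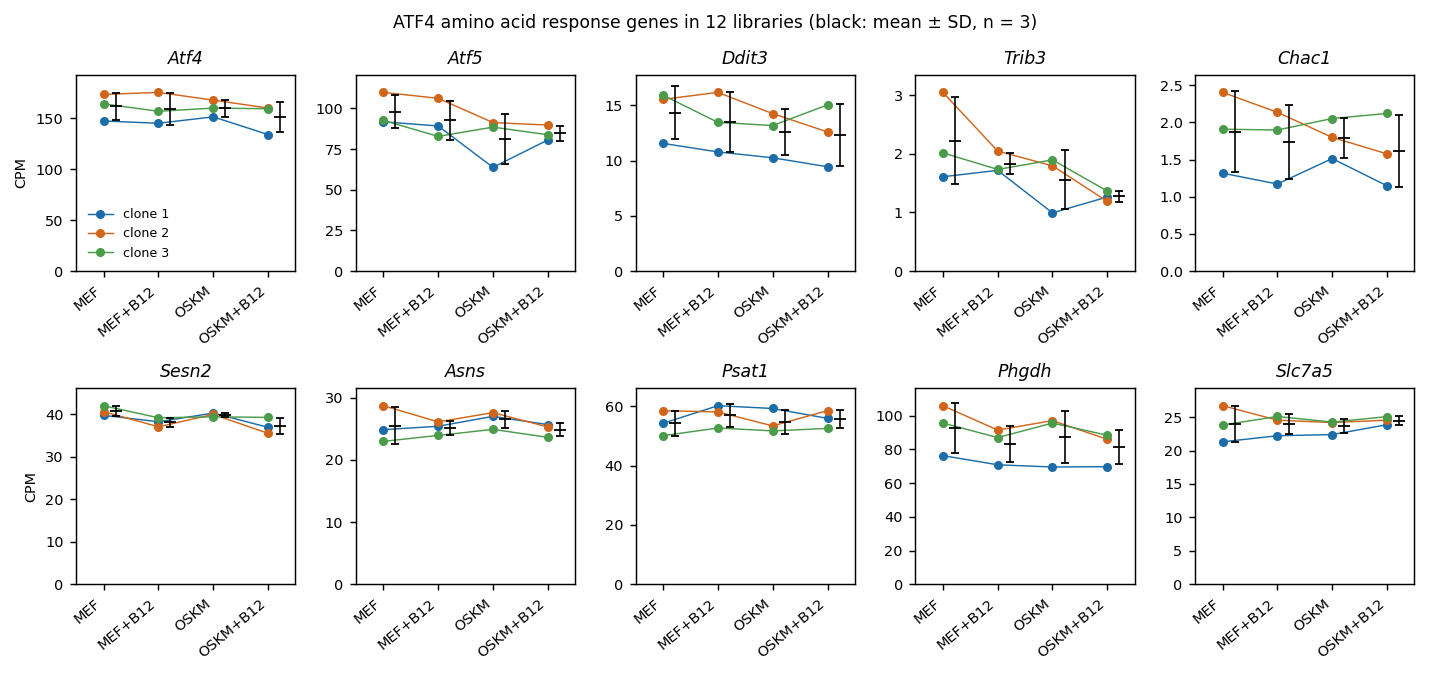
Level of each member (CPM, linear axis from 0) in the 4 groups, with 1 coloured line per clone and the mean ± SD of the 3 libraries of a group in black. Atf4, Phgdh, Ddit3 and Chac1 of clone 1 lie below both other clones in all groups, and the means of most members move little from group to group.

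None of the 10 members passed the test in any comparison of groups. The background share of all genes that passed was 0.0730% for OSKM against MEF, 0.104% for OSKM+B12 against MEF+B12 and 9.73% for induction averaged over both B12 states. It was 1.06% for B12 in OSKM, 1.38% for B12 in MEF, 3.84% for B12 averaged over both states and 0.00% for the interaction, which is the B12 difference in OSKM minus that in MEF. In that order, 2, 1, 3, 1, 1, 2 and 0 members had an unadjusted p below 0.05 in edgeR, where the shares of all genes were 19.0%, 14.9%, 26.8%, 9.82%, 10.3%, 15.5% and 1.42%. The members' counts lie near these shares. DESeq2 passed 2 members, Atf5 and Trib3, for induction averaged over B12 and 0 in each of the other 6 comparisons. It also passed more of all genes than edgeR, 492 for induction without B12 and 420 with it. Of the 83 other pathway genes described below, it passed 4 as higher and 10 as lower for induction averaged over B12. Its share of all genes in that average is not given here, so the 2 members cannot be read against it. The edgeR background is small in the first 2 comparisons, where 14 and 20 of all genes passed, so the average over B12 is the comparison of induction with room for calls. These are bulk samples, in which fewer cells of a type and less RNA per cell cannot be told apart.

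Among the transcription factors, Atf4 was nearly level over the groups. It was at 147, 174 and 164 CPM in MEF for clones 1, 2 and 3, at 145, 176 and 157 CPM in MEF+B12, at 151, 168 and 160.1 CPM in OSKM and at 134, 160.2 and 159 CPM in OSKM+B12. All 4 groups overlapped, and clone 1 was the lowest in each of them. Induction averaged over B12 gave −0.04 ± 0.03 for Atf4 (adjusted p = 0.426 in edgeR), with a 95% interval from −0.12 to 0.03. B12 averaged over states gave −0.05 ± 0.03 (adjusted p = 0.486), with an interval from −0.13 to 0.02.

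Atf5, a close relative of ATF4 that is likewise under translational control and acts on mitochondrial stress genes, was lower with induction in 5 of 6 clone pairs. Its levels in clones 1, 2 and 3 were 91.8, 109.8 and 92.6 CPM in MEF and 63.7, 91.3 and 88.5 CPM in OSKM, so these groups did not overlap. With B12 they were 89.2, 106 and 82.8 CPM in MEF+B12 and 80.5, 89.7 and 83.8 CPM in OSKM+B12, and there the groups overlapped. The difference was −0.28 ± 0.09 without B12 (adjusted p = 0.171) and −0.13 ± 0.09 with it (adjusted p = 0.560). Averaged over B12 it was −0.20 ± 0.06 with an adjusted p of 0.0666. Over its alternative settings this p ran from 0.0154 to 0.468. The lowest value of all was that of clone 1 in OSKM, and without that library the averaged difference was −0.14 with an adjusted p of 0.0804.

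Ddit3 encodes CHOP, the factor that links lasting stress to cell death. It was at 11.6, 15.5 and 15.9 CPM in MEF for clones 1, 2 and 3, at 10.8, 16.2 and 13.46 CPM in MEF+B12, at 10.2, 14.2 and 13.2 CPM in OSKM and at 9.44, 12.6 and 15.0 CPM in OSKM+B12. The groups overlapped in every comparison, and induced cells were lower in 5 of 6 clone pairs. The exception was clone 3 with B12. Induction averaged over B12 gave −0.16 ± 0.06 for Ddit3 (adjusted p = 0.128 in edgeR), and B12 averaged over states gave −0.06 ± 0.06 (adjusted p = 0.689).

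Trib3, a pseudokinase that ATF4 and CHOP induce and that holds ATF4 in check, had the largest difference of the 10 members. It was at 1.61, 3.05 and 2.02 CPM in MEF for clones 1, 2 and 3 and at 0.994, 1.80 and 1.90 CPM in OSKM. With B12 it was at 1.72, 2.05 and 1.74 CPM in MEF+B12 and at 1.26, 1.19 and 1.37 CPM in OSKM+B12. Induced cells were lower in 6 of 6 clone pairs, and with B12 the groups did not overlap. The difference averaged over B12 was −0.51 ± 0.15 with a 95% interval from −0.84 to −0.18. Its adjusted p was 0.0565 in edgeR and ran from 0.0160 to 0.450 over the alternative settings. B12 averaged over states gave −0.26 ± 0.15 for Trib3 (adjusted p = 0.459), lower in 4 of 6 pairs, and clone 1 was higher with B12 in both states.

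Leaving out clone 3, whose factors were least induced, moved these 3 genes past the threshold. The averaged induction difference was then −0.29 for Atf5 with an adjusted p of 0.0154, −0.21 for Ddit3 with an adjusted p of 0.0442, and −0.67 for Trib3 with an adjusted p of 0.0462. Without B12, Atf5 passed as well in clones 1 and 2, at −0.39 with an adjusted p of 0.0368. The count of all genes that passed for induction averaged over B12 moved at the same time from 1865 to 3056. It was 10 without clone 1, 3 without clone 2 and 771 without the OSKM library of clone 1, and in these no member passed. A test of the product of clone and induction passed 2.15% of all genes and 0 of the 10 members by edgeR or DESeq2, with 0 members at an unadjusted p below 0.05 and adjusted p-values of 0.364 to 0.968. That test asks for any difference among the 3 clones. The response of clones 1 and 2, with much Pou5f1, was not tested against that of clone 3, with little.

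Chac1 breaks down glutathione and is among the genes that ATF4 raises most in starved cells. It was at 1.32, 2.40 and 1.91 CPM in MEF for clones 1, 2 and 3, at 1.17, 2.14 and 1.90 CPM in MEF+B12, at 1.51, 1.80 and 2.05 CPM in OSKM and at 1.15, 1.58 and 2.12 CPM in OSKM+B12. All groups overlapped and the clones went different ways with induction. Clone 2 was lower by 0.41 and 0.43 on the log2 scale without and with B12, while clone 3 was higher by 0.10 and 0.16. The averaged difference for Chac1 was −0.07 ± 0.12 with induction (adjusted p = 0.750) and −0.15 ± 0.12 with B12 (adjusted p = 0.619).

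Sesn2, which senses leucine upstream of mTORC1, was the member in which B12 took the largest share of the variation. It was at 39.7, 40.6 and 41.97 CPM in MEF for clones 1, 2 and 3 and at 38.2, 37.02 and 39.1 CPM in MEF+B12. In induced cells it was at 40.2, 39.9 and 39.4 CPM in OSKM and at 36.9, 35.5 and 39.2 CPM in OSKM+B12. The library with B12 was lower in 6 of 6 clone pairs, and the groups overlapped in neither state. The share of all genes with groups apart was not counted, here or for Atf5 and Trib3, so this describes the libraries and is no test. The difference averaged over states was small, −0.10 ± 0.03 with a 95% interval from −0.17 to −0.03. It did not pass among all genes in edgeR (adjusted p = 0.138), and over the alternative settings its adjusted p ran from 0.131 to 0.659.

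The enzymes that make asparagine and serine differed little between groups. Asns, asparagine synthetase, was at 24.9, 28.7 and 23.0 CPM in MEF for clones 1, 2 and 3, at 25.4, 26.1 and 23.9 CPM in MEF+B12, at 27.01, 27.6 and 24.9 CPM in OSKM and at 25.7, 25.3 and 23.6 CPM in OSKM+B12. Its averaged differences were 0.02 ± 0.04 with induction (adjusted p = 0.773) and −0.05 ± 0.04 with B12 (adjusted p = 0.544). Psat1, the transaminase of the serine pathway, was at 54.3, 58.5 and 50.1 CPM in MEF, at 60.2, 58.1 and 52.6 CPM in MEF+B12, at 59.2, 53.4 and 51.7 CPM in OSKM and at 55.9, 58.5 and 52.5 CPM in OSKM+B12. Its averaged differences were −0.01 ± 0.04 with induction (adjusted p = 0.896) and 0.05 ± 0.04 with B12 (adjusted p = 0.604). Groups overlapped for both enzymes. The 95% intervals of the 4 differences lay between −0.14 and 0.13.

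Phgdh, the first enzyme of serine synthesis, was the member with the smallest adjusted p for B12. It was at 76.2, 106 and 95.6 CPM in MEF for clones 1, 2 and 3 and at 70.8, 91.4 and 86.9 CPM in MEF+B12. It was at 69.5, 96.99 and 95.5 CPM in OSKM and at 69.7, 85.9 and 88.3 CPM in OSKM+B12. The library with B12 was lower in 5 of 6 clone pairs, and the groups overlapped because clone 1 was the lowest in each. Averaged over states the difference was −0.12 ± 0.04 with an adjusted p of 0.0934 in edgeR. It was −0.14 with an adjusted p of 0.0411 without the OSKM library of clone 1, and its adjusted p ran up to 0.998 over the other settings. Phgdh is uncertain, since 55.8% of its 31-base sequence words also occur in the processed pseudogenes Gm7901, Gm9347 and Gm8341, which were at 28.1 to 42.6, 6.36 to 12.045 and 2.80 to 5.79 CPM. Counted together with these 3 pseudogenes, a setting added after the data were seen, Phgdh gave −0.12 ± 0.04 with an adjusted p of 0.137.

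Slc7a5 is the large neutral amino acid transporter LAT1, which brings leucine into the cell. It was at 21.3, 26.7 and 23.8 CPM in MEF for clones 1, 2 and 3, at 22.2, 24.5 and 25.1 CPM in MEF+B12, at 22.4, 24.2 and 24.2 CPM in OSKM and at 23.9, 24.5 and 25.1 CPM in OSKM+B12. All groups overlapped, and B12 gave the higher level in 5 of 6 clone pairs. Its averaged differences were 0.01 ± 0.04 with induction (adjusted p = 0.919) and 0.03 ± 0.04 with B12 (adjusted p = 0.787).

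As a list, the members leaned slightly down in the averaged comparisons. Their median difference was −0.05 with induction averaged over B12 and −0.06 with B12 averaged over states, against −0.0028 and −0.01 over all genes tested. Of the 10 members, 8 were lower with induction and 8 were lower with B12, where 50.9% and 55.1% of all genes were lower. The median size of the difference, regardless of sign, was 0.05 and 0.06 for the members against 0.10 and 0.07 for all genes. For the interaction the median was −0.0069 for the members and 0.0034 for all genes, and the largest member value was 0.15 for Atf5 with a 95% interval from −0.12 to 0.43. The comparisons share libraries with each other, so these counts are not separate pieces of evidence.

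**Figure D2:**
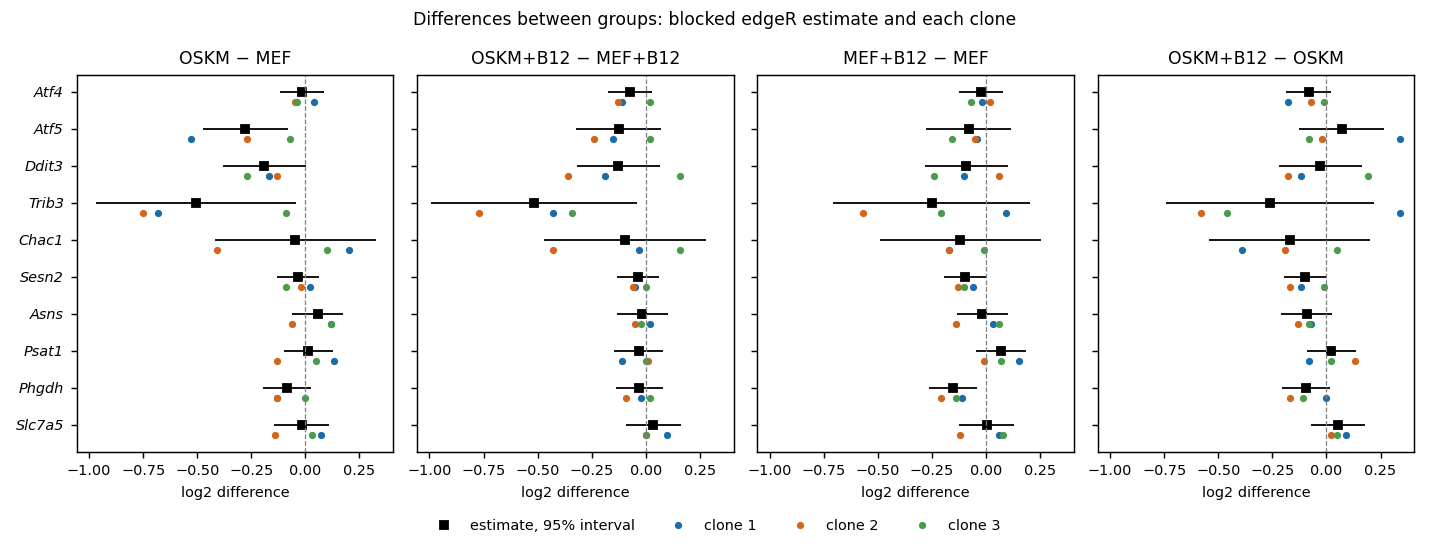
Log2 difference of each member in the 4 comparisons of 2 groups (horizontal axis), with the blocked edgeR estimate and its 95% interval in black and the 3 clones' own differences as coloured points below it. Trib3 has the widest intervals and lies at −0.50 and −0.52 in the 2 comparisons of induction, while most other members lie within 0.2 of 0.

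The difference that the members did show was between embryos. The test of level between clones passed 7 of the 10 members, against 37.8% of all genes. DESeq2 passed 6 of them, without Asns. Its share of all genes in this test is not given here, so the 6 cannot be read against it. The adjusted p in edgeR was 0.000101 for Phgdh, 0.00101 for Ddit3, 0.00342 for Atf4, 0.00967 for Chac1, 0.0293 for Atf5, 0.0318 for Asns and 0.0340 for Psat1. Slc7a5 had 0.0551, Trib3 0.123 and Sesn2 0.390.

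Phgdh averaged 71.6 ± 3.17 CPM in clone 1 (SD, n = 4 libraries), 95.02 ± 8.50 CPM in clone 2 and 91.6 ± 4.61 CPM in clone 3. Ddit3 averaged 10.5 ± 0.889, 14.6 ± 1.58 and 14.4 ± 1.30 CPM in clones 1, 2 and 3. Atf4 averaged 145 ± 7.43, 169 ± 6.88 and 160.2 ± 3.01 CPM. Chac1 averaged 1.29 ± 0.168, 1.98 ± 0.365 and 1.99 ± 0.109 CPM. For these 4 genes the highest library of clone 1 was below the lowest of both other clones. Asns and Psat1 had another order, with the lowest mean in clone 3, at 23.9 ± 0.801 and 51.7 ± 1.18 CPM. Counted with its pseudogenes, Phgdh kept its difference between clones (adjusted p = 0.000151).

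Clone 1 lay below both other clones in every library for Phgdh, Ddit3, Atf4 and Chac1, but not for the other members that passed. In clones 1, 2 and 3, Psat1 averaged 57.4, 57.1 and 51.7 CPM and Asns 25.7, 26.9 and 23.9 CPM, lowest in clone 3. Atf5 averaged 81.3, 99.3 and 86.9 CPM, highest in clone 2. Without clone 1, 0 of the 10 members passed between clones 2 and 3 in edgeR, with 3 at an unadjusted p below 0.05, and the count of all genes that passed moved from 7239 to 1315. That fit has fewer libraries, so it cannot place the members' difference in clone 1. Without clone 2, 4 members passed, and without clone 3, 5 did, in both cases including Phgdh, Ddit3 and Chac1. The share of all genes that passed is not given for these settings, so the member counts are not read against a background. The embryo, the Y-linked genes and the year in the sample titles cannot be told apart for clone 1, and each clone is 1 embryo. The libraries of a clone are not separate embryos, so the p-value measures the difference between these 3 cultures. Macrophage markers moved with the clone too. Summed over 11 genes they averaged 2555 ± 421 CPM in clone 1, 1958 ± 552 CPM in clone 2 and 1563 ± 377 CPM in clone 3, and their part in the members' levels was not tested.

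Each member's sum of squares over the 12 libraries was also split, which describes the same values again and is no separate support. Clone took 83.6% for Phgdh, 78.3% for Atf4, 77.0% for Ddit3, 75.6% for Chac1, 64.8% for Psat1, 64.6% for Slc7a5 and 64.0% for Asns. The median over all genes tested was 38.0%. Only Atf5, Trib3 and Sesn2 of the 10 members had less than 50% on clone, at 41.4%, 24.8% and 16.6%. Induction took 40.3% for Trib3 and 29.1% for Atf5, where the median of all genes was 7.84%, and B12 took 57.8% for Sesn2, where the median was 4.56%. These shares describe the libraries and carry no test.

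**Figure D3:**
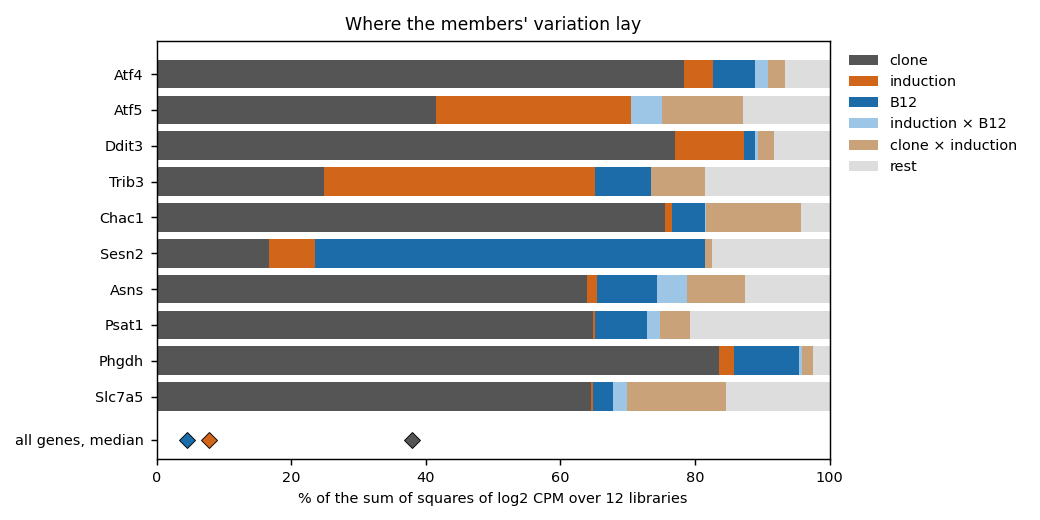
Share of each member's sum of squares of log2 CPM over 12 libraries (horizontal axis, %) that lay between clones, between induced and uninduced cells, between B12 states, in 2 products of these, and in the rest. Diamonds give the median over all genes for clone (38.0%), induction (7.84%) and B12 (4.56%). Clone is the widest part for 8 of 10 members, induction for Trib3 and B12 for Sesn2.

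Within a clone, some members went up and down together over the 12 libraries. After each clone's mean was taken out, Pearson's r was 0.818 for Trib3 with Atf5, 0.808 for Phgdh with Trib3, 0.777 for Sesn2 with Phgdh, 0.763 for Chac1 with Atf4 and 0.761 for Ddit3 with Atf4. It was lowest for Phgdh with Psat1, at −0.391, which are neighbouring enzymes of serine synthesis. These are descriptions of 12 libraries that share 3 embryos and 4 treatments. The mean of the 10 members, each scaled to an SD of 1, was highest in the MEF library of clone 2, at 1.42, and lowest in the OSKM+B12 library of clone 1, at −0.94.

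The genes outside the list with the pattern most like the mean of the members, by Pearson's r over 12 libraries among 11975 genes, were Acvrl1 at 0.957, Ypel5 at 0.947, Calu at 0.946, Efemp2 at 0.945 and Spg20 at 0.945. Acvrl1 is a receptor of the BMP family and Calu a calcium-binding protein of the endoplasmic reticulum. For Atf4 alone they were Sav1 at 0.971, AK157302 at 0.967, Tcn2 at 0.962, Gyg at 0.961 and Stub1 at 0.960. Tcn2 encodes transcobalamin, the carrier that delivers vitamin B12 to cells, and averaged 95.9, 130.3 and 120.4 CPM in clones 1, 2 and 3. All of these genes, like Atf4, were lowest in clone 1.

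Around the members, 83 other genes in 8 lists covered the rest of the pathway, and all 83 were tested. With induction averaged over B12, 2 of them rose and 7 fell, or 10.8% against the 9.73% of all genes, and the median over the 83 was −0.04. Leaving out a library or clone moved these counts. Without clone 1 and without clone 2, 0 of the 83 passed in edgeR, with 17 and 10 at an unadjusted p below 0.05. Without clone 3, 3 rose and 13 fell, and without the OSKM library of clone 1, 3 rose and 2 fell, with Cth and Slc1a5 among the rises and Slc7a8 and Trib1 among the falls in both. For induction without and with B12 and for the interaction 0 of them passed in edgeR, with 17, 11 and 1 at an unadjusted p below 0.05, while DESeq2 passed 2, 3 and 0. With B12, 3 of them rose and 0 fell in MEF, in OSKM and averaged over both, or 3.61% against 3.84% of all genes in the average, where the median was −0.0013. Within a state most of these calls were lost when a clone was left out, in fits with fewer libraries. In OSKM 0 of the 83 passed in edgeR without clone 1, 2 or 3 (5, 8 and 7 at an unadjusted p below 0.05). In MEF 0 passed without clone 2 (5 at an unadjusted p below 0.05), and 1, Sdf2l1, passed without clone 1 or without clone 3. The lists were chosen with earlier results of these data known.

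The list of amino acid transporters had 1 rise and 1 fall with induction among 11 genes. Slc1a5, the glutamine carrier ASCT2, rose by 0.30 ± 0.06 (adjusted p = 0.0222), from 96.4 ± 6.97 CPM in MEF to 118 ± 22.9 CPM in OSKM and from 92.3 ± 5.14 CPM in MEF+B12 to 116 ± 17.6 CPM in OSKM+B12 (SD, n = 3). Slc38a2, the starvation-induced carrier SNAT2, fell by 0.20 on the log2 scale (adjusted p = 0.0393), from 266 ± 20.0 CPM in MEF to 231 ± 39.8 CPM in OSKM. Neither differed with B12 by more than 0.05, with adjusted p-values of 0.777 and 0.993.

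Among 11 enzymes of serine, proline and mitochondrial one-carbon metabolism, 1 rose and 2 fell with induction. Cth, which makes cysteine in the last step of transsulfuration, rose by 0.77 ± 0.15 (adjusted p = 0.0214), from 2.17 ± 0.378 CPM in MEF to 3.60 ± 1.37 CPM in OSKM and from 2.12 ± 0.294 to 4.01 ± 1.43 CPM with B12. Aldh1l2 and Mthfd2, mitochondrial enzymes of the folate cycle, fell by 0.29 and 0.19 on the log2 scale (adjusted p = 0.0241 and 0.0367). Mthfd2 went from 20.3 ± 0.323 CPM in MEF to 18.1 ± 1.70 CPM in OSKM and from 20.6 ± 0.969 to 17.8 ± 0.546 CPM with B12. Mthfd1l, which acts next to Mthfd2, had 0.21 and did not pass in edgeR (adjusted p = 0.0544), but was higher past the threshold in DESeq2, with no filter and without clone 3.

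Of 10 ATF4 partners and stress factors, 1 passed with induction in edgeR and 4 in DESeq2, which passed Nupr1 as higher and Atf3, Cebpb and Stc2 as lower. Cebpb, a DNA-binding partner of ATF4, fell by 0.19 on the log2 scale (adjusted p = 0.0453). Atf3, a stress factor downstream of ATF4, had −0.34 ± 0.10 and did not pass in edgeR (adjusted p = 0.0569), but was lower past the threshold in DESeq2, with no filter and without clone 3. It was at 7.25 ± 0.955 CPM in MEF and 5.39 ± 0.287 CPM in OSKM. Among 10 family relatives of the members 3 fell. Trib1, a relative of Trib3, fell by 0.39 (adjusted p = 0.0219), Slc7a8, a relative of Slc7a5, by 0.38 (adjusted p = 0.0212), and Sesn3, a relative of Sesn2, by 0.16 (adjusted p = 0.0483), all on the log2 scale. Among 9 genes for the kinases and phosphatases of eIF2alpha, 12 aminoacyl-tRNA synthetases, 8 amino acid sensors of mTORC1 and 12 targets of ATF6 and XBP1, 0 passed with induction in edgeR, with 1, 0, 2 and 2 at an unadjusted p below 0.05. DESeq2 passed 1 of them, Impact, an inhibitor of GCN2.

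Markers of fibroblasts, the labelled cells, and of other cell types also differed with induction averaged over B12. Of 10 fibroblast markers 4 were lower past the threshold, with a median of −0.15 over the 10 (0 without clone 1 or without clone 2, and 1 without the OSKM library of clone 1). Of 11 macrophage markers 9 were lower and 2 higher, with a median of −0.20. Csf1r and Adgre1 passed as lower, at −0.31 and −0.27 (adjusted p = 0.0409 and 0.0465), and Itgam as higher, at 0.37 (adjusted p = 0.0389). Of 5 endothelial markers 3 could be tested. Tek rose by 1.26 ± 0.21 (adjusted p = 0.0171), from 38.7 ± 3.42 CPM in MEF to 101 ± 48.7 CPM in OSKM, and took most of the sum of the 5, which was 43.6 ± 2.53 CPM in MEF and 107 ± 48.3 CPM in OSKM. Cdh5 rose by 1.22 from a level of 0.919 CPM in MEF (adjusted p = 0.0207), and Kdr had 0.01 (adjusted p = 0.965). Of 3 muscle markers tested Ttn fell by 1.68 on the log2 scale (adjusted p = 0.0172), and of 4 neural markers tested Tubb3 fell by 0.42 (adjusted p = 0.0296). Muscle markers summed to at most 8.31 CPM and neural markers to at most 40.1 CPM in any library, and no marker was at 0 in all libraries. Without clone 1 and without clone 2, 0 markers of these 5 lists passed with induction in edgeR, with 1 to 4 of each list at an unadjusted p below 0.05. The part of these markers in the pathway genes' differences with induction was not tested.

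The 3 genes that passed as higher with B12 in edgeR were relatives of members or belonged to another branch of the stress response. Slc7a8, a transporter subunit of neutral amino acids, rose by 0.61 ± 0.07 averaged over states (adjusted p = 0.0009), from 19.8 ± 5.95 to 29.6 ± 8.56 CPM in MEF and from 14.9 ± 4.63 to 23.0 ± 4.30 CPM in OSKM. Slc7a7, a transporter subunit of cationic amino acids that macrophages are known to use, rose by 0.47 ± 0.06 (adjusted p = 0.00115), from 5.27 ± 0.892 to 7.59 ± 1.25 CPM in MEF and from 5.08 ± 0.457 to 6.81 ± 1.04 CPM in OSKM. Sdf2l1, a chaperone subunit of the endoplasmic reticulum, rose by 0.53 ± 0.05 (adjusted p = 0.00027), from 14.0 ± 1.24 to 21.03 ± 2.99 CPM in MEF and from 13.2 ± 1.42 to 18.5 ± 1.69 CPM in OSKM. The other 11 of the 12 ATF6 and XBP1 targets did not pass with B12. Averaged over states the 3 genes also passed without clone 1 and without clone 3, and Slc7a8 and Sdf2l1 passed without clone 2. DESeq2 passed Sesn1 as higher as well, a relative of Sesn2, which was lower with B12. In edgeR Sesn1 had 0.15 and did not pass (adjusted p = 0.0756). Without the OSKM library of clone 1, Got1 also passed as higher and Trib2 as lower in edgeR.

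Macrophage markers moved with B12 in the same libraries. All 11 rose with B12 averaged over states, 8 of them passed in MEF and 6 in OSKM (in edgeR 0 in either state without clone 2, with 11 and 10 at an unadjusted p below 0.05, and 1 and 0 without clone 3), and their median was 0.57. Averaged over states, 11 passed without clone 1, 1 without clone 2 and 6 without clone 3. Their sum ran from 1228 to 2368 CPM in MEF, 1866 to 3150.0 CPM in MEF+B12, 1246 to 2178 CPM in OSKM and 1912 to 2525 CPM in OSKM+B12. Of the fibroblast markers 10 of 10 were lower with B12 and 0 passed in edgeR (4 at an unadjusted p below 0.05, and 1 passed in DESeq2), with a median of −0.11, which is of the size of the differences of Sesn2 and Phgdh. Their part in the differences of Slc7a7, Slc7a8, Sdf2l1, Sesn2 and Phgdh was not tested.

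In the genome (GRCm38) the members lie apart on 9 chromosomes. Atf4 lies at chr15:80255184-80257541 on the plus strand, Atf5 at chr7:44812256-44816658 on the minus strand, Ddit3 at chr10:127290774-127296288 on the plus strand and Trib3 at chr2:152337422-152344032 on the minus strand. Chac1 lies at chr2:119351229-119354381 on the plus strand, Sesn2 at chr4:132492032-132510501, Asns at chr6:7675169-7693254 and Psat1 at chr19:15904678-15947337, the last 3 on the minus strand. Phgdh lies at chr3:98313170-98339990 and Slc7a5 at chr8:121881150-121907694, both on the minus strand. All are protein-coding. Exons on the opposite strand overlap 4.11% of the exonic bases of Atf5 and 4.73% of those of Ddit3, and the counting used strand. Psat1 shares 2.18% of its sequence words with the pseudogene Gm12611, which had at most 1 count in a library.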

How the data were processed

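RNA was sequenced in 12 libraries of 3 embryos by 4 groups. The authors made strand-specific poly(A) libraries, aligned read pairs with STAR 2.5.2 to mm10 (GRCm38) and deposited raw counts per gene from featureCounts with an Ensembl annotation. How reads with several matches were treated is not given in the sources used here. Symbols and coordinates came from GENCODE M21, which matched 55480 identifiers and left 93 unmatched.

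Counts were fitted with edgeR 4.0.16 (R 4.3.3) after filterByExpr by group, with clone and group as terms, TMM scaling and Benjamini-Hochberg adjustment at 0.05. The common biological coefficient of variation was 8.04%. The block was the clone, whose embryo gave 1 library to every group, and libraries of a clone deviated together from their group means (r 0.270 to 0.687 over 18 pairs, against −0.510 to 0.170 over 36 pairs of other clones and groups). Further fits tested the level between clones and the product of clone and induction. Log2 CPM used a prior count of 2. Alternatives were DESeq2 1.42.0, its size factors, other filters, no block, and leaving out each clone or the OSKM library of clone 1. The code was tested on simulated data that held B12 changes but no clone or induction effect. Recovery was checked only for B12 averaged over states.

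All 10 members are named. From each pathway list up to 4 genes of smallest p in the averaged comparisons could be named. The genes most alike in pattern are the 5 of highest Pearson r with a mean log2 CPM of at least 1 and no predicted name. The members and lists were chosen with earlier results of these data known. Counting error without molecular identifiers does not cover amplification.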

Additional observations from a re-analysis of the deposited data

How the results depend on the processing

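The number of all genes passing depended both on the processing and on the clones used. Of 637 member values under alternatives, 593 kept their direction and side of the threshold, 9 came past it and 35 turned sign, none of them past the threshold on either side and none above 0.16 in size. DESeq2 and no filter each passed 2 members for induction averaged over B12, Atf5 and Trib3. The shares of all genes that these 2 settings passed in that average are not given here, so the 2 members cannot be read against them. Both settings also passed more of all genes for induction without and with B12, as given below. Without the replicate block, 0 members passed for any comparison of groups, and the count of all genes was 0 for induction without B12, with B12 and averaged, 0 for B12 in OSKM and in MEF, and 90 for B12 averaged. The causes were not tested.

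The count of all genes for induction without B12 was 492 with DESeq2, 681 with no filter and 2 with at least 10 counts in every library. With B12 these counts were 420, 646 and 1. For B12 in OSKM DESeq2 gave 385 and no filter 364, and for B12 in MEF 461 and 425. The count for the induction response between clones was 1257 with no filter. With no filter, B12 in MEF gave −0.0014 for Slc7a5 and the interaction 0.0016 for Sesn2, which was 0.0004 with at least 10 counts.

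Leaving out 1 clone or library, the count of all genes ran from 1 to 1322 for induction without B12 and 1 to 1004 with B12, from 3 to 3056 averaged, from 0 to 224 for B12 in OSKM, from 0 to 334 in MEF and from 34 to 785 averaged. Between clones it ran from 1315 to 6994 for the level and from 0 to 838 for the induction response. Members passing ran from 0 to 1 for induction without B12, 0 to 3 averaged, 0 to 1 for B12 averaged and 0 to 7 for the level between clones. The ranges below cover all fits without a clone or library, for members whose value turned sign in at least 1. For induction without B12 the values ran from −0.046 to 0.0093 for Atf4, −0.16 to 0.16 for Chac1, −0.040 to 0.094 for Psat1 and −0.057 to 0.056 for Slc7a5. With B12 they ran from −0.25 to 0.076 for Chac1 and −0.0053 to 0.051 for Slc7a5, and averaged from −0.0032 to 0.062 for Asns, −0.19 to 0.12 for Chac1, −0.029 to 0.019 for Psat1 and −0.031 to 0.054 for Slc7a5. For B12 in OSKM they ran from −0.054 to 0.17 for Atf5, −0.14 to 0.037 for Ddit3 and −0.036 to 0.075 for Psat1, in MEF from −0.041 to 0.013 for Atf4, −0.039 to 0.047 for Asns and −0.019 to 0.070 for Slc7a5, and averaged from −0.076 to 0.068 for Atf5. For the interaction they ran from −0.13 to 0.21 for Ddit3, −0.13 to 0.069 for Chac1, −0.19 to 0.14 for Trib3, −0.15 to 0.039 for Psat1, −0.057 to 0.022 for Sesn2 and −0.0053 to 0.088 for Slc7a5. With 1 library per clone and group, differences of the size seen in most members could not be separated from the spread between libraries.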
